A study of Schizosaccharomyces pombe with 2 samples.

Results

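Transcripts of 8 fission yeast genes of the G1/S transition and of DNA precursor supply were followed in a strain labelled pob3 against wild type. The genes, taken by name from the array, were cdc18, cdt1, cdc22, suc22, cig2, mik1, rad21 and dut1, and they make up 8 of 4766 genes measured on both arrays. They were chosen by their ratios of pob3 over wild type on these same arrays, so those ratios are described here without a test.

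In fission yeast, entry into S phase depends on a wave of transcription driven by the MBF complex, which is built on Cdc10 and the DNA-binding proteins Res1 and Res2. Its known targets include loading factors for the replicative helicase, the large subunit of ribonucleotide reductase, a B-type cyclin, an inhibitory kinase and cohesin. Ribonucleotide reductase makes deoxyribonucleotides, and dUTPase removes dUTP and so keeps uracil out of new DNA. Pob3 belongs to the histone chaperone FACT, which acts in both transcription and replication.

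Total RNA was hybridised to 2 spotted arrays of open reading frames. Each array carried pob3 and wild-type RNA in different dyes. On replicate 1 the pob3 RNA had the Cy5 label, and on replicate 2 the dyes were swapped. Most genes were printed as a single pair of adjacent spots, and each of the 8 genes has 4 spots over both arrays. The labels name the strains only as pob3 and wt, and give neither the allele nor the growth conditions. Separate cultures are not mentioned for the arrays, so the p-values below reflect the spread between the arrays at hand, and this may be technical. With 1 residual and 9.71 prior degrees of freedom, the spread in the test is mostly pooled over genes. It is not the SD printed beside each mean. All 32 spots of the 8 genes passed the filter on quality flag and brightness. Ratios are given as log2 of pob3 over wild type after loess normalisation, with the mean ± SD over both arrays (n = 2), and so few arrays limit the precision. In RNA of a whole culture, fewer cells at a cell-cycle stage and less RNA per cell cannot be told apart.

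The gene named in the strain label was checked first. The pob3 probe gave ratios of -1.36 and -1.44 in its spots on replicate 1 and of -1.02 and -1.21 on replicate 2. All 4 spots were thus lower for the pob3 strain, though its signal stayed above background in each. Gene signals had medians of 6249 to 6300 in Cy5 and 1977.5 to 2009 in Cy3 on replicate 1, and of 5082.5 to 5364 and 4217 to 4441.5 on replicate 2. Backgrounds were higher in Cy5, with medians of 545 to 599 against 8.5 to 16. Over all genes the arrays correlated at a Pearson r of 0.155, a description across genes, which are not independent replicates.

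Of the 8 genes, the dUTPase gene dut1 was lower in pob3 in every spot, at -1.13 ± 0.09, which is 2.19-fold lower. The gene of the large ribonucleotide reductase subunit, cdc22, was higher in every spot, at 0.86 ± 0.22 or 1.81-fold. However, its spots on replicate 2 were dimmer than on replicate 1 and sat on a bright local background. The remaining 6 genes had means between -0.23 and 0.30. For suc22, cig2 and mik1 the paired spots agreed within an array, and the arrays took opposite signs. The median over the 8 genes was -0.03, beside 0.02 over all genes. Of the 8, 4 were above 0 and 4 below, where 52.0% of all genes had a mean above 0.

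**Figure D1:**
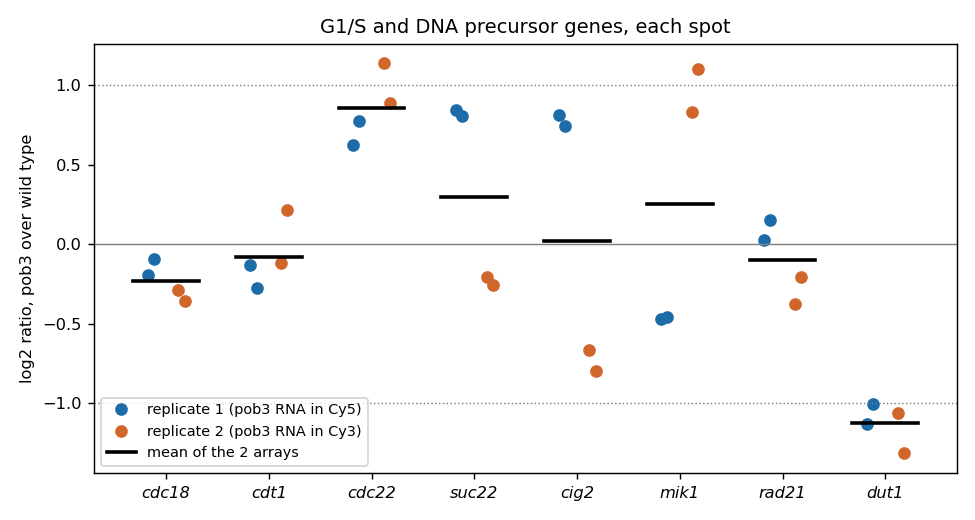
Log2 ratio of pob3 over wild type (vertical axis) for each spot of the 8 genes (horizontal axis), with replicate 1 in blue, replicate 2 in orange, the mean of the 2 arrays as a black bar and 2-fold as dotted lines. All 4 dut1 spots lie at or below -1.004, all 4 cdc22 spots lie above 0.60, and suc22, cig2 and mik1 split by array.

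The submitters' notes give a cut-off of 2 for lists of high and low genes. Taken as 2-fold and required on both arrays, which is a reading made here, 1 of the 8 genes was lower (dut1) and 0 were higher. Over all genes 0.231% were lower by this limit and 0.755% higher, together 0.986%. Since the genes were chosen with these ratios known, nothing is read from that count. With loess fitted within each print block the dut1 ratios were -1.03 and -0.95, so that 0 of the 8 passed on both arrays. Of the other genes cdc22 came nearest. It fell below the limit on replicate 1, with 0.70, and passed it on replicate 2, with 1.02, where its spots had the bright local background.

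The first pair of genes licenses replication origins. Cdc18 and Cdt1 together load the MCM helicase onto origins, and both are short-lived proteins. The cdc18 signals on replicate 1 were 5352 and 5075.5 for pob3 against 1944 and 1698.5 for wild type, and on replicate 2 they were 3540 and 3584.5 against 5492 and 5823.5. After normalisation cdc18 had -0.19 and -0.09 in the spots of replicate 1 and -0.29 and -0.36 in those of replicate 2. All 4 values lay slightly below 0, at a mean of -0.23 ± 0.13, and its print block had medians of -0.11 and -0.25. With print-tip loess the cdc18 mean was -0.03.

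For cdt1 the ratios were -0.13 and -0.28 on replicate 1 and -0.12 and 0.22 on replicate 2, so the spots of replicate 2 fell on either side of 0. Their gap of 0.33 was the largest between paired spots among the 8 genes. The mean was -0.08 ± 0.18. Its block had a median of 0.34 on replicate 2, and with print-tip loess the cdt1 ratios were -0.34 and -0.27. Both origin licensing genes therefore lay below 0 in the mean, by amounts that changed with the treatment of print blocks.

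Ribonucleotide reductase is built from a large catalytic subunit, encoded by cdc22, and a small radical-bearing subunit, encoded by suc22. On replicate 1 the cdc22 spots read 35641 and 39053 for pob3 and 8858.5 and 8706 for wild type. On replicate 2 they read 4226 and 6402 for pob3 and 2997 and 5760 for wild type. The ratios were 0.62 and 0.77 on replicate 1 and 1.14 and 0.89 on replicate 2, so all 4 spots were higher for pob3. Among all genes cdc22 ranked at 87 from the highest mean.

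The cdc22 spots of replicate 2 were unlike those of replicate 1. In Cy5 the cdc22 signals were 35641 and 39053 on replicate 1, against medians of 6300 and 6249 for gene spots. On replicate 2 they were 2997 and 5760, against 5364 and 5082.5. In Cy3 they were 8858.5 and 8706 against 2009 and 1977.5, then 4226 and 6402 against 4441.5 and 4217. The Cy5 backgrounds of cdc22 on replicate 2 were 923 and 2417, against a median of 545 to 547 for gene spots. Only 70 and 5 of 4879 gene spots had a higher one. The background SD was 1279 and 2024, where the medians were 22.6 and 23.9. The Cy3 background of the second spot was 695, against a median of 8.5. On replicate 1 the Cy5 backgrounds of cdc22 were 527 and 571, near the median of 597.5 to 599. The 24 nearest gene spots had Cy5 background medians of 708 and 682 on replicate 2, with single spots up to 1316 and 4860.5. With no background correction the cdc22 mean was 0.68 in place of 0.86, the lowest under its 9 other settings. That setting changes every spot. The parts of this background and of the lower signal in the cdc22 ratio were not tested by themselves. Without replicate 2 the cdc22 ratio was 0.70.

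**Figure D2:**
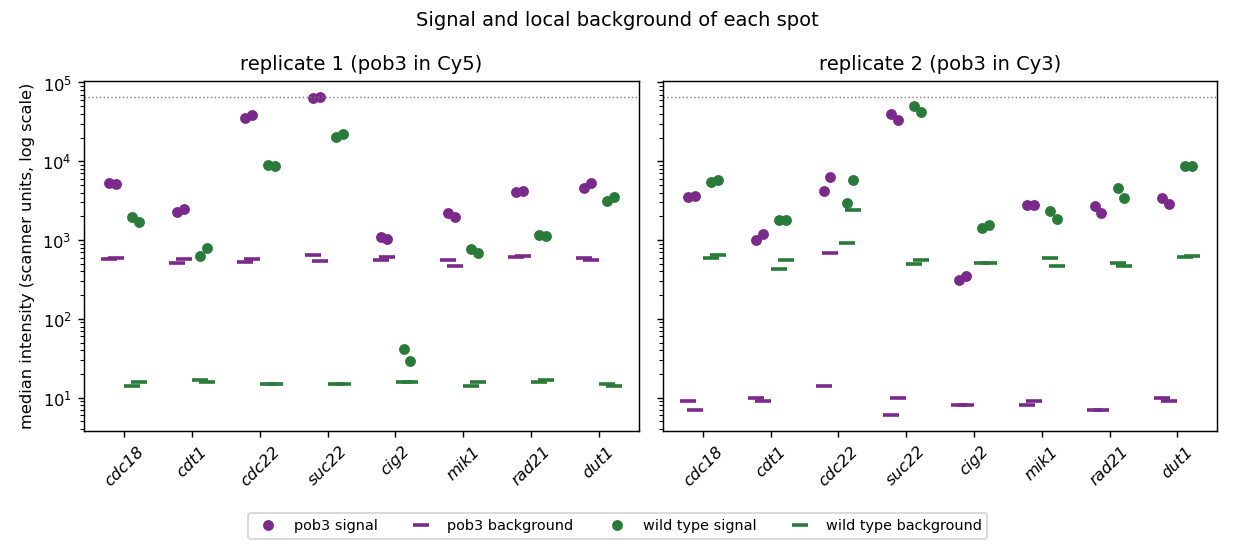
Median intensity of each spot (dots) and of its local background (dashes) on a log axis for the 8 genes, pob3 in purple and wild type in green, with replicate 1 on the left, replicate 2 on the right and the saturation limit as a dotted line. The cdc22 backgrounds on replicate 2 reach 923 and 2417, the wild-type cig2 signals on replicate 1 sit at 42 and 29, and suc22 reaches the limit on replicate 1.

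The small subunit gene suc22 gave some of the brightest spots. Its pob3 signal on replicate 1 was 63573.5 in 1 spot and saturated in the other, against 20323.5 and 22218 for wild type. On replicate 2 pob3 read 40058.5 and 33068 and wild type 50303 and 42646, all below saturation. The ratios were 0.84 and 0.81 on replicate 1 and -0.21 and -0.26 on replicate 2. Paired spots agreed within 0.05, while the arrays differed by 1.06, and the mean of 0.30 ± 0.75 is smaller than its SD. With median centring in place of loess the suc22 ratios were 0.03 and -0.07.

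On replicate 2 the ratio of cdc22 was 1.25 above that of suc22, on the array where the cdc22 spots had the high background. On replicate 1 cdc22 less suc22 was -0.13, the opposite sign, with 1 suc22 spot saturated for pob3. With median centring, which used the same saturated spot, cdc22 had 0.51 and 1.04, above suc22 on both arrays. The order of the 2 genes on replicate 1 thus depended on the normalisation. From replicate 1 to replicate 2 suc22 moved by more than cdc22 did, at gaps of 1.06 and -0.32 (replicate 1 less replicate 2).

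The dUTPase gene, spotted under its systematic name SPAC644.05c, had the smallest SD between arrays of the 8 genes. On replicate 1 its spots read 4547.5 and 5315 for pob3 and 3175 and 3489 for wild type. On replicate 2 they read 3379 and 2862.5 for pob3 and 8652 and 8794.5 for wild type. The ratio of background-subtracted signals, before any normalisation, was 1.25 and 1.37 on replicate 1 and 0.42 and 0.35 on replicate 2. On replicate 1 pob3 was in Cy5, the brighter channel for most genes, and loess took that dye difference out.

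After normalisation the dut1 ratios were -1.13 and -1.004 on replicate 1 and -1.06 and -1.32 on replicate 2. The arrays differed by 0.12, a gap that ranked at 3929 of 4766 genes from the widest. By mean ratio dut1 ranked at 11 from the lowest. All 4 spots lay above background in both channels and below saturation, with backgrounds between the 5th and 85th percentile of gene spots. The medians of its print block were -0.01 and -0.17. In the authors' deposited table of processed values for replicate 2, which of the 8 genes holds values for dut1 alone, its spots had -1.16 and -1.40.

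Measured genes next to dut1 on the chromosome had ratios nearer to 0, as most genes did, above 0 on replicate 1 and below 0 on replicate 2. In the order of the reference table, pct1 on 1 side had 0.12 and -0.23 on the arrays (-0.06 ± 0.25). On the other side cdr1 had 0.17 and -0.41 (-0.12 ± 0.41) and bcs1 had 0.26 and -0.62 (-0.18 ± 0.62). By Euclidean distance over the 4 spot ratios, the genes most like dut1 were rps1002, of the small ribosomal subunit (-1.12 and -1.33 on the arrays), tif1102 (-1.16 and -1.11) and snz1, of vitamin B6 synthesis (-1.001 and -1.10). Their distances were 0.28, 0.30 and 0.33. Those most like cdc22, the highest of the 8, were SPAC521.03 (0.72 and 1.09), SPBC21D10.08c (0.55 and 1.09) and fnx1 (0.78 and 1.12), at distances of 0.12, 0.25 and 0.25. With 4 spots on 2 arrays, such likeness amounts to a similar ratio.

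**Figure D3:**
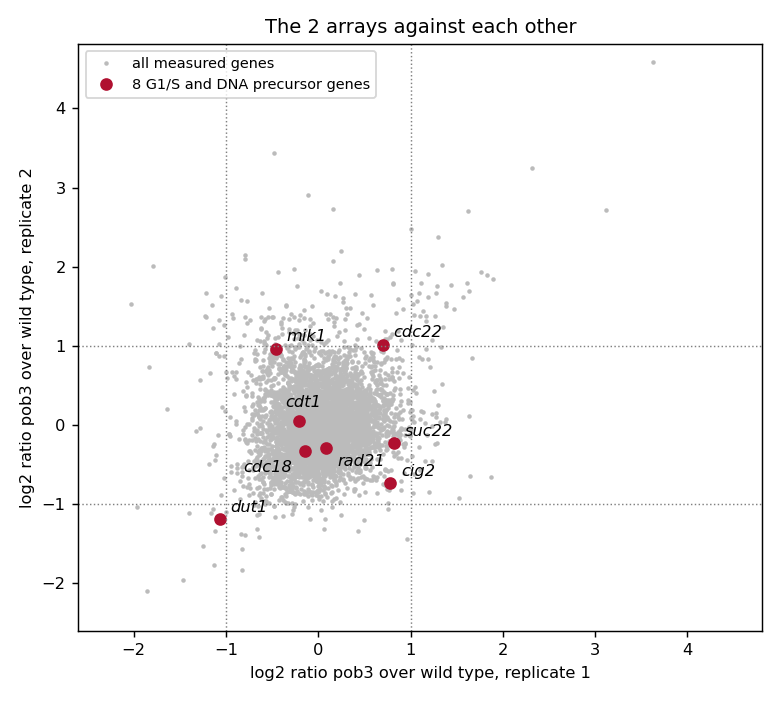
Log2 ratio of pob3 over wild type on replicate 1 (horizontal) against replicate 2 (vertical) for all 4766 measured genes in grey and the 8 genes in red, with 2-fold as dotted lines. Only dut1 of the 8 lies past 2-fold on both arrays, and mik1, suc22 and cig2 lie where the arrays take opposite signs.

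The cell-cycle regulators cig2 and mik1 act on the CDK Cdc2 in opposite ways. Cig2 is the B-type cyclin that promotes S phase, and Mik1 is a kinase that, with Wee1, phosphorylates and inhibits Cdc2. For cig2 the wild-type signals on replicate 1 were 42 and 29 over a background of 16, which were not above background by the limit used, while pob3 read 1084 and 1026 over 557 and 617.5. On replicate 2 pob3 read 314 and 350 over 8, and wild type 1417 and 1568 over 511.5 and 512.5.

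The cig2 ratios were 0.81 and 0.74 on replicate 1 and -0.66 and -0.80 on replicate 2, a mean of 0.02 ± 1.07. On both arrays the Cy5 signal came out the higher. The gap of 1.51 between arrays ranked at 116 of 4766 genes. A ratio against the wild-type signal of replicate 1 is only a bound, and with median centring the cig2 ratios were 1.76 and -1.32. The arrays therefore give cig2 no common direction.

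For mik1 pob3 read 2219 and 1969 on replicate 1 against 767 and 692 for wild type, and 2761 and 2755.5 on replicate 2 against 2317 and 1874.5. The ratios were -0.47 and -0.46 on replicate 1 and 0.83 and 1.10 on replicate 2. Here the Cy3 signal came out higher on both arrays, the reverse of cig2, and all spots lay above background in both channels. The mean was 0.25 ± 1.01, and replicate 1 less replicate 2 was -1.43, a gap that ranked at 138. The print block of mik1 had medians of -0.18 and 0.26, and less these medians the ratios were -0.28 and 0.70. Its neighbour on the chromosome msi2 had -0.58 and 0.97, and ssb1 on the other side had -0.01 and 0.55. A place further, gnd1 had -0.22 and 0.06 and egt2 had -0.02 and 0.45.

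Ratios of measured genes within 2 places of the others on the chromosome are described here, and an effect of position was not tested. Beside suc22, dnt1, mcm7, trm1 and mrh5 had -0.45, -0.61, -0.72 and -0.57 on replicate 2, so all 4 lay further below 0 than suc22 there, while on replicate 1 they ran only from -0.11 to 0.24. Beside cdt1, which had 0.05 on replicate 2, the adjacent wpl1 and utp15 had 1.12 and 0.17 there, and alp6 and rhb1, a place further, had 0.83 and 0.16. Beside cdc22, the adjacent rho1 and hsp3105 had 0.81 and 0.10 on replicate 1 and -0.13 and 0.44 on replicate 2. A place beyond hsp3105, fip1, of the iron uptake system, had 1.62 and 1.79. The neighbours of cig2, grx5, pmc1 and vma5, had -0.07, 0.12 and -0.18 on replicate 1, where cig2 had 0.78. Beside cdc18, meu17, arc1 and dbl3 had means of -0.12, -0.28 and -0.03. Beside rad21, SPCC338.18 and pof3 had means of 0.12 and 0.16, and gdh2 and wbp1, a place further, had -0.87 and -0.35.

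With 1 array for each dye orientation, dye and array cannot be told apart in these gaps. A gap over 1 was seen in 3 of the 8 genes (suc22, cig2 and mik1), beside 8.67% of all genes. The median gap of the 8 was 0.35, beside 0.37 over all genes. Paired spots on an array, by contrast, differed by 0.01 to 0.33. Signs agreed between the arrays for 3 of the 8 genes (cdc18, cdc22 and dut1), beside 52.6% of all genes.

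The cohesin gene rad21 encodes the kleisin subunit that closes the ring around sister chromatids. Its pob3 signals were 4030 and 4231 on replicate 1 and 2703.5 and 2198 on replicate 2, against wild-type signals of 1152 and 1121, then 4556 and 3437.5. The ratios were 0.02 and 0.15 on replicate 1 and -0.37 and -0.21 on replicate 2. The arrays thus took opposite signs by a small amount, with a mean of -0.10 ± 0.27, and the block medians were -0.05 and -0.33. With print-tip loess rad21 had 0.12 and 0.02.

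Other genes of the pathway were taken from 11 lists and read from limma's test across all genes, with Benjamini-Hochberg adjustment at 0.05. Of 149 listed names 134 were measured, and 15 had no unique array name or failed the filter. Of the 134 genes 1 rose, 0 fell and the others did not pass, where 0.525% of all genes passed in either direction (0.441% higher and 0.0839% lower). At an unadjusted p under 0.05 there were 5 of the 134, where 353 of all 4766 genes had one, a share against which the counts in the lists below are to be read. The median of the 134 genes was 0.00, with 67 above 0 and 67 below, where 52.0% of all genes had a mean above 0. Counts above or below 0 in the lists are to be read against that share. The gene that rose was klp8, a kinesin-like gene of the mitosis and septation list (1.29 and 1.76 on the arrays, 1.52 ± 0.33, adjusted p = 0.0331 in limma). It did not pass with median centring or with a smaller offset in background correction.

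The MBF factor itself was measured through 6 genes, of which 0 passed limma's test and 0 had an unadjusted p under 0.05. The DNA-binding subunit gene res2 had 0.10 and 0.85 on the arrays (0.48 ± 0.53, adjusted p = 0.756), and nrm1, whose product represses MBF after S phase, had 0.47 and 0.33 (0.40 ± 0.10, adjusted p = 0.778). The shared subunit gene cdc10 had -0.75 and 0.01 and the corepressor gene yox1 had 0.18 and -0.26. The list median was -0.02. Of 8 other periodic G1/S genes 0 passed and 0 had an unadjusted p under 0.05 in limma, with a median of 0.16. Those with the smallest p were ctp1, of DNA end resection (0.31 ± 0.10, adjusted p = 0.834), and the checkpoint mediator gene mrc1 (-0.27 ± 0.34, adjusted p = 0.875).

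Of 21 measured genes for factors that work with Cdc18 and Cdt1 at origins 15 had a mean below 0. Over all genes 52.0% had a mean above 0, and the difference was not tested. The list median was -0.10. The medians were -0.01 on replicate 1 and -0.25 on replicate 2, and 0 of the 21 passed limma's test, with 2 at an unadjusted p under 0.05. The lowest were cdc45, of the active helicase (-0.74 ± 0.12, adjusted p = 0.479), and orc5, of the origin recognition complex (-0.67 ± 0.46, adjusted p = 0.607). Of 24 polymerase and fork genes 12 were above 0 and 12 below, 0 passed limma's test and 0 had an unadjusted p under 0.05. The sliding clamp gene pcn1 had -0.53 ± 0.43 (adjusted p = 0.718) and the clamp loader gene rfc3 had -0.50 ± 0.14 (adjusted p = 0.717).

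The supply of precursors around dut1 and the reductase genes was read from 12 further genes of nucleotide synthesis. Of these 0 passed limma's test and 0 had an unadjusted p under 0.05, their median was 0.02 and their means ran from -0.40 to 0.24. In adk1 and ura1 the pob3 signal was saturated in all 4 spots and the wild-type signal in 2. Their means of -0.05 and -0.0004 are limited by this. The uracil synthesis gene ura4, a common selection marker in this yeast, had -0.40 ± 0.08 (adjusted p = 0.778), and the thymidylate synthase gene tds1 had -0.35 ± 0.11 (adjusted p = 0.819). The dihydrofolate reductase gene dfr1 had -0.01 ± 0.17. All 12 means lay above that of dut1, as did nearly all of the 4766 genes, among which dut1 ranked at 11 from the lowest.

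Regulators of ribonucleotide reductase were measured through 6 genes. Spd1, which holds the reductase in check until the Ddb1-Cdt2 ubiquitin ligase removes it, had spd1 ratios of 0.43 and -0.41. Of the ligase genes, cdt2 had -0.60 and 0.82, ddb1 -0.78 and 0.54 and pcu4 -0.85 and 1.00. These 3 were lower on replicate 1 and higher on replicate 2, and spd1 was the reverse. Signs agreed between the arrays for only 52.6% of all genes. Since these genes were named after their values were seen, nothing is read from the pattern. The COP9 signalosome genes csn1 and csn2, needed for Spd1 removal, had 0.75 ± 0.06 (adjusted p = 0.459) and 0.57 ± 0.65 (adjusted p = 0.718). Of the 6 genes 0 passed limma's test, and 1 had an unadjusted p under 0.05.

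**Figure D4:**
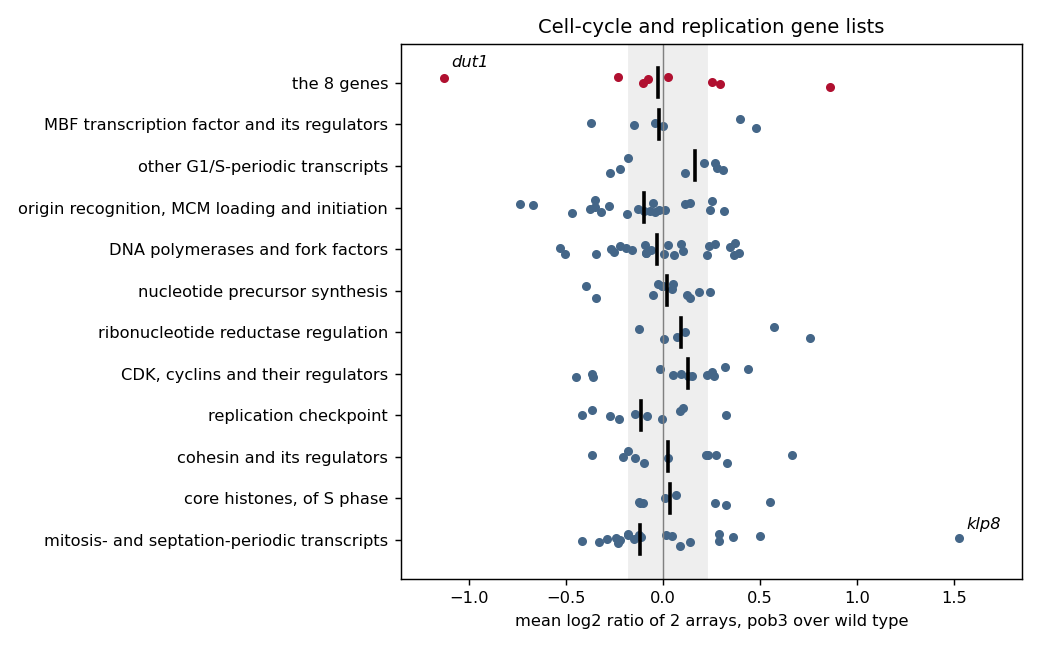
Mean log2 ratio of pob3 over wild type over 2 arrays (horizontal axis) for each of the 8 genes (red) and each measured gene of the 11 lists (blue), with list medians as black bars and the interquartile range of all genes shaded. The lowest gene shown is dut1 at -1.13, and the highest is klp8 at 1.52.

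Among 13 genes for CDKs, cyclins and their regulators, 0 passed limma's test and 0 had an unadjusted p under 0.05, with 9 above 0. The CDK inhibitor gene rum1, which holds cells in G1, had -0.44 and -0.46 (adjusted p = 0.756), and ste9, which directs mitotic cyclins to destruction, had 0.32 and 0.55 (adjusted p = 0.756). Of 10 replication checkpoint genes 0 passed and 0 had an unadjusted p under 0.05 in limma, and crb2 (-0.42 ± 0.14) and hus1 (-0.36 ± 0.10) had the smallest p (adjusted p = 0.771 and 0.803).

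Of 11 genes of cohesin and its regulators 0 passed limma's test and 1 had an unadjusted p under 0.05, with a median of 0.03. The cohesin release gene wpl1, which lies next to cdt1, had 0.20 and 1.12 (0.66 ± 0.65, adjusted p = 0.662), and the separase gene cut1 had -0.36 ± 0.14 (adjusted p = 0.803).

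Lists for S phase, mitosis and mating were read in the same way. Core histone genes, which are transcribed in S phase, had a median of 0.04 over 8 genes, 0 of which passed limma's test or had an unadjusted p under 0.05. In 7 of the 8 the pob3 signal was saturated in all 4 spots, and in all of these but hta2 the wild-type signal was saturated in 2 or more spots as well. The histone list therefore carries no reading of S phase, and its median and count are limited by saturation. The least saturated gene, hhf3 (2 of 4 spots in pob3), had 0.92 and 0.18 (adjusted p = 0.717), and hta2, saturated in pob3 alone, had 0.32 ± 0.12 (adjusted p = 0.831). Of 20 mitosis and septation genes klp8 rose and the others did not pass, with a list median of -0.12. The chitin synthase family gene chs2 had 0.50 ± 0.22 (adjusted p = 0.729). Of 11 markers of mating and meiotic cells 6 were measured and 0 passed limma's test or had an unadjusted p under 0.05. The median of these markers was 0.35, beside 0.02 over all genes. Their means ran from -0.30 to 0.45, with map1 at 0.45 ± 0.29 and ste11 at 0.40 ± 0.47 (adjusted p = 0.756 and 0.787 in limma). The wild-type signals of map1 and mam2 lay above background in only 2 of 4 spots. Whether the cultures held such cells, and any part of them in the ratios of the 8 genes, was not tested.

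Processing moved the means of the 8 genes little next to the spread between arrays, a yardstick that was wide for some. Of 72 values under other settings 69 lay within 1 SD of the value given above. The other 3 were cdc18, cdt1 and dut1 with print-tip loess, the genes with the smallest SDs of the 8. These settings keep both arrays. For suc22, cig2 and mik1 the SD was 0.75, 1.07 and 1.01, so 69 of 72 says little about these 3 genes. On replicate 1 median centring moved suc22 from 0.82 to 0.03 and cig2 from 0.78 to 1.76. On replicate 2 it moved cig2 from -0.73 to -1.32. The dut1 mean ran from -1.17 to -0.99 and was below 0 under all 10 settings tried. The cdc22 mean ran from 0.68 to 0.88 and the mik1 mean from 0.18 to 0.32, each above 0 under 9 settings. The cdc18 mean ran from -0.24 to -0.03. By contrast the signs of suc22, cig2 and rad21 depended on the setting, with ranges of -0.02 to 0.32, -0.07 to 0.22 and -0.18 to 0.07. With a single array kept, mik1 had -0.46 or 0.97 and cdt1 -0.20 or 0.05, and suc22, cig2 and rad21 also turned sign.

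**Figure D5:**
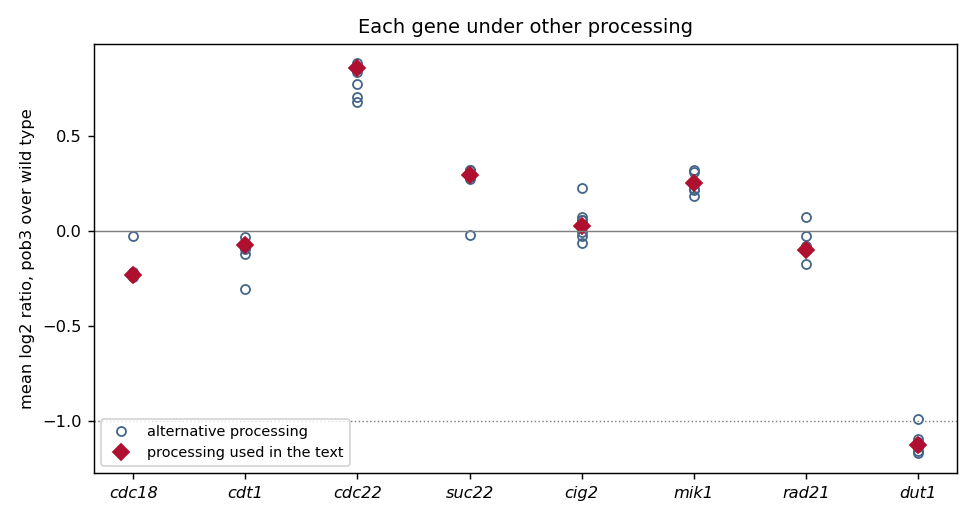
Mean log2 ratio of pob3 over wild type (vertical axis) of each of the 8 genes with the processing used in the text (red diamonds) and under each alternative on both arrays (open circles), with 2-fold lower as a dotted line. The dut1 values stay between -1.17 and -0.99, while suc22, cig2 and rad21 have values on both sides of 0.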

How the data were processed

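The authors deposited scanner intensity values, per the file headers the median brightness of each spot and its local background in the mutant and wt channels, in 1 file per spot of the pair and array (5760 spots, 32 blocks). The labels give the dyes. The authors used Lowess in GeneSpring and a cut-off of 2 for gene lists, per the series' design text. Their deposited log2 ratio table was set against values computed here: replicate 2 had r = 0.977 over 6260 gene spots, pob3 over wild type; its probes were matched by print position. The replicate 1 column, with 768 values and 0 on gene spots, was left unused, since neither scale, centring nor direction could be settled. Column medians were -0.12 and -0.04. The image software is not given in these sources.

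With limma 3.58.1 (R 4.3.3), normexp (offset 50) corrected the background and loess, giving control spots weight 0, normalised each file. Spots needed a flag of 0 and signal above background in 1 channel, over 2 background SDs in Cy3 or 1.5 times background in Cy5. The files do not name the channel of the SD; the signal columns beside it correlate at 0.996 to 0.997 with Cy3. Spots were averaged per array. The test was lmFit and eBayes against 0, with 1 residual and 9.71 prior degrees of freedom. Tested on simulated data (10 sets, 4766 genes, 200 changed), the fit recovered a median of 100% at 4-fold and 48.5% at 2-fold, and 9.17% of calls were false, above the nominal level. Names were matched to ASM294v3 gene names: of 4868 gene names 4609 matched 1 locus, 53 several and 206 none. Neighbours come from its gene order.

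The genes and lists were chosen with earlier results of these data known. Named genes are the 8, pob3, the 2 genes of each list with the smallest p and any that passed, and the 3 genes nearest to the lowest and highest of the 8. Further genes of the MBF, nucleotide and reductase lists and the neighbours were chosen after their values were seen. Alternatives changed background correction, normalisation, filter, spots, arrays and thresholds. The submitters' values and the medians without single genes were added after the data were seen.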

Additional observations from a re-analysis of the deposited data

How the results depend on the processing

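The count of 25 genes past an adjusted p of 0.05 (limma) was 56 with print-tip loess, 53 from second spots alone, 52 at 0.10, 49 from first spots alone, 45 with uncorrected background, 43 at equal spread of arrays, 39 where both channels had to pass, 38 under an intensity trend and 11 at an offset of 10. With median centring it was 0 in limma, with 174 at an unadjusted p under 0.05. The listed pathway gene past the threshold, klp8, was lost with median centring and with an offset of 10 (0 genes by limma, with 2 and 5 at an unadjusted p under 0.05). Of the genes over 2-fold on both arrays, 47 became 154 at 1.5-fold, and 126 to 225 on single arrays. Of the 8 genes, 1 over 2-fold became 0 with print-tip loess, 2 at 1.5-fold (dut1 and cdc22) and 1 to 2 on single arrays. Their median of -0.027 ranged from -0.26 to -0.027 on single arrays, and was 0.06 with print-tip loess, -0.08 without cdc22, -0.10 without cdc22, cig2 and suc22, and 0.02 without dut1. The causes were not tested. No paired analysis was possible because there is 1 group of ratios, each of which already pairs both RNAs within an array, so no block can be added. Saturation limits suc22 and wild-type signal near background limits cig2, each on replicate 1.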
